A study of Mus musculus with 6 samples.

Results

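The genes described here are 10 mucins and secreted products of the ocular surface and lacrimal epithelium. The membrane mucins are Muc1, Muc4, Muc15, Muc16 and Muc20, and the secretory genes are Ltf, Pigr, Clu, Lcn2 and Wfdc2. They were chosen by gene symbol. Of the 10, 9 were found among the 23420 symbols of the count tables; Muc16 was not among them and is not analysed here. The samples were mouse lacrimal gland buds captured by laser at E14.5, with 3 samples in each of 2 groups on a mixed background. The Control samples are titled WT, whereas the paper gives the RNA-seq controls as Le-Cre. This transgene drives Cre recombinase in the conjunctival and lacrimal gland epithelium. The paper's methods name as controls both Le-Cre mice and Le-Cre mice heterozygous for the Pea3, Erm and Er81 alleles. The Pea3 TKO embryos carried Le-Cre with the alleles Pea3-/-, Erm fl/fl and Er81 fl/fl, which remove the ETS transcription factors Etv4 (Pea3), Etv5 (Erm) and Etv1 (Er81). By the paper's description, Le-Cre was thus present in both groups. Pea3 was null in the whole embryo, whereas Erm and Er81 were deleted only where Cre acts.

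Membrane mucins are long proteins, densely decorated with O-linked sugars, that project from the apical cells of the cornea and conjunctiva. They form the glycocalyx that holds the tear film. The secretory genes belong mostly to the mature gland and to barrier epithelia: lactoferrin (Ltf) and lipocalin 2 (Lcn2) sequester iron, Pigr carries immunoglobulin A across epithelial cells, clusterin (Clu) is a secreted chaperone, and Wfdc2 is a small protein with the four-disulfide-core fold of protease inhibitors. At this stage the bud is an outgrowth of the conjunctiva and has no differentiated secretory acini.

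Total counts ran from 14194775 to 17860140 per sample, so that 3 counts, taken here as the floor, corresponded to 0.169 to 0.210 CPM. CPM is the normalized count (TMM) scaled to a common library size. The targeted genes were lower in every Pea3 TKO sample, with summed CPM of Etv4, Etv5 and Etv1 of 108 to 215 against 1168 to 1375 in the Controls. Etv5 made up most of that sum. Mean CPM fell from 1058 to 139 for Etv5 (log2 fold change -2.93) and from 151 to 19.5 for Etv4 (-2.95). For Etv1 it fell from 31.8 to 9.52 (-1.74). General epithelium markers summed to 2940 to 3715 CPM in Controls and 5414 to 6351 in Pea3 TKO, and 7 of the 8 were called higher, Epcam being the exception. Their median log2 fold change was 1.10, and their part in the changes of the set was not tested. Sex-linked RNA differed between the groups. All Controls and Pea3 TKO replicate 3 held Y-linked RNA (136 to 175 CPM over 4 genes), while Pea3 TKO replicates 1 and 2 held 0.445 and 0.210 CPM, and expressed Xist. Summed mesenchyme markers were 505 and 664 CPM in Pea3 TKO replicates 1 and 2, but 101 in replicate 3, against 109 to 201 in the Controls. Values for replicate 3 alone are therefore given beside the changes of the set. The part of sex and of mesenchyme in the changes was not tested beyond these values. The labels do not say whether each sample came from a separate embryo, so p-values measure only the spread between these samples.

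Of the 10 genes, 4 were higher in Pea3 TKO (Muc1, Muc4, Muc20 and Clu), 1 was lower (Wfdc2) and 1 was tested without a call (Muc15). For comparison, 13.6% of the 13087 tested genes were called higher and 11.3% lower, a call being a Benjamini-Hochberg adjusted p under 0.05 in the edgeR quasi-likelihood test. The 4 that rose all had a log2 fold change over 3, a cut chosen with their values known. Of all tested genes, 2.12% were called higher with a change of that size. That share describes the cut and is not a test of the set. In 5 of the 6 tested genes the groups did not overlap, against 43.9% of tested genes in either direction. Ltf, Pigr and Lcn2 had too few counts to test. Muc1, Muc4 and Muc20 passed the filter on low counts through the Pea3 TKO samples, where they were high.

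**Figure D1:**
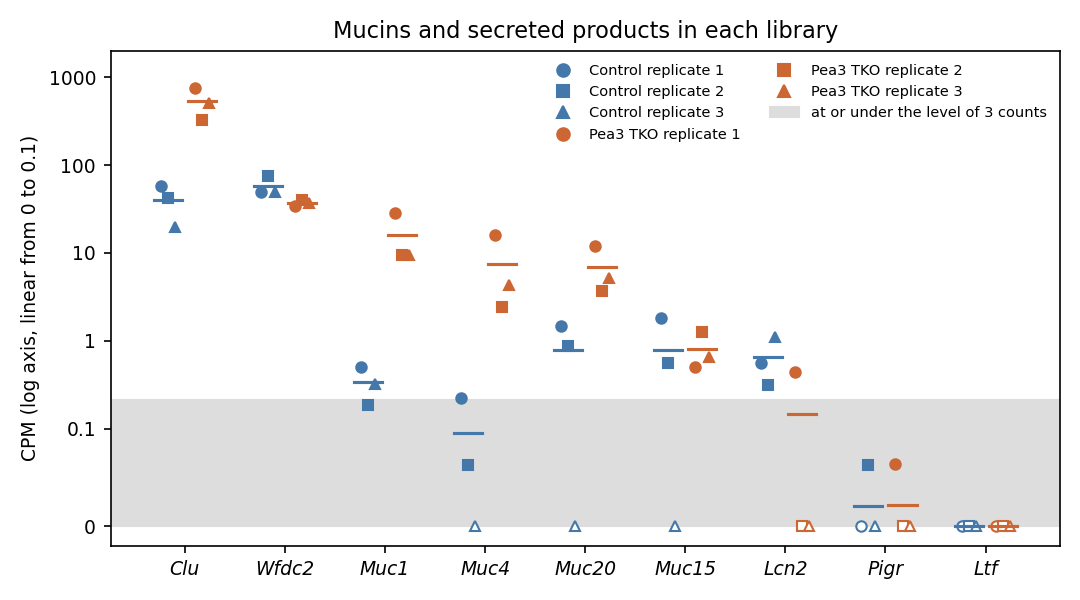
CPM of the 9 listed genes in each sample (log axis, linear from 0 to 0.1), with Controls in blue, Pea3 TKO in orange, group means as bars, samples at 0 as open symbols and the level of 3 counts shaded. Muc1, Muc4, Muc20 and Clu lie higher in all 3 Pea3 TKO samples than in any Control, and Wfdc2 lies lower.

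Muc1, a transmembrane mucin found on most simple epithelia and on the ocular surface, was close to the floor in the Controls, at 0.507, 0.187 and 0.325 CPM in replicates 1 to 3. In Pea3 TKO replicates 1 to 3 it was 28.6, 9.58 and 9.51 CPM. The lowest Pea3 TKO sample was 18.8-fold above the highest Control. Non-overlap with Pea3 TKO higher occurred in 22.5% of tested genes. The log2 fold change was 5.50 (SE 0.63, adjusted p = 0.00044). Summed over samples, 749 counts in Pea3 TKO stood against 17 in the Controls, a rate ratio of 46.0 with an exact 95% interval of 28.5 to 79.4 that covers counting error only. Without Pea3 TKO replicate 1 the log2 fold change was 4.77 (adjusted p = 0.0023).

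Muc4, a very large membrane mucin that also binds the receptor ErbB2, was essentially undetected in the Controls, with 4, 1 and 0 counts in replicates 1 to 3 (0.225, 0.0623 and 0 CPM). Pea3 TKO replicates 1 to 3 held 249, 35 and 73 counts (15.8, 2.45 and 4.29 CPM). The groups did not overlap, and the log2 fold change was 6.13 (SE 1.06, adjusted p = 0.0033). This fold rests on a Control sum of 5 counts: the rate ratio was 74.6, and counting error alone allowed 31.7 to 231. The log2 fold change was 7.56 without Control replicate 1 (adjusted p = 0.0025) and 4.98 without Pea3 TKO replicate 1 (adjusted p = 0.021).

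Muc20, a membrane mucin first described in kidney, was measured at 1.47, 0.872 and 0 CPM in Control replicates 1 to 3, and at 11.9, 3.64 and 5.11 CPM in Pea3 TKO replicates 1 to 3. Every Pea3 TKO sample was above every Control, the nearest pair being 2.48-fold apart. The log2 fold change was 3.11 (SE 0.96, adjusted p = 0.040). This was the least secure of the increases, since it lost its call when 1 sample was left out in 4 of 6 cases: adjusted p was 0.104 without Control replicate 2 and 0.167, 0.060 and 0.057 without Pea3 TKO replicates 1, 2 and 3. The log2 fold change was 3.94 without Control replicate 1 (adjusted p = 0.024) and 2.47 without Pea3 TKO replicate 1.

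Muc4 and Muc20 are neighbours on chromosome 16. In GENCODE M21 (GRCm38), Muc4 spans 32735886 to 32782391 on the plus strand and Muc20 spans 32777419 to 32797435 on the minus strand. Their ends therefore overlap over 4973 bases, of which 627 are exonic in both genes (5.33% of Muc4 exonic bases and 15.6% of those of Muc20). Strand use in the counting is not given in the sources used here, so reads in this stretch cannot be assigned to either gene with certainty. Muc1 lies on the plus strand of chromosome 3 from 89229057 to 89233381.

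For these 3 mucins, the 250 bases before the RefSeq starts (GRCm38.p6) are shown, 5′ to 3′ on the gene strand. Capitals mark GGAA or its reverse complement TTCC, the core letters that ETS proteins contact.
Muc1, chr3:89228806-89229055, plus strand: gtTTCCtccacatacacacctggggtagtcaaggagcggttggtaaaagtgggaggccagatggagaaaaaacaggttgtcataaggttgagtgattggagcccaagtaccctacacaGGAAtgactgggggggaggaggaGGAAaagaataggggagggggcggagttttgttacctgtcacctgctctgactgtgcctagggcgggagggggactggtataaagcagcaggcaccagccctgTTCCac
Muc4, chr16:32735636-32735885, plus strand: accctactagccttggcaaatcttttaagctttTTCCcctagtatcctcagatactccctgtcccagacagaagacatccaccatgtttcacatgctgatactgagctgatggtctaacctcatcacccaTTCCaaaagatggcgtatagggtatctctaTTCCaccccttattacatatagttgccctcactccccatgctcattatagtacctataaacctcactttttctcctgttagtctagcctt
Muc20, chr16:32797436-32797685, minus strand: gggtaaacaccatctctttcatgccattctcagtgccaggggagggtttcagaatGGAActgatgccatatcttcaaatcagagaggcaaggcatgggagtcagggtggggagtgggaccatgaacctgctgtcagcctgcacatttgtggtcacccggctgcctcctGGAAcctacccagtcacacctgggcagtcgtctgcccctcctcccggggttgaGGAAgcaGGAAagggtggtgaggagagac

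The Muc1 and Muc20 windows each held 4 such cores, and the Muc4 window held 3. Windows of this length held a median of 3 cores, and 93.4% of 32851 RefSeq windows held at least 1. The longer form CGGAAG, which contains the core and was searched on both strands, was in none of the 3 windows and in 13.6% of all. The form AGGAAG, also containing the core and searched likewise, was in the Muc20 window once, starting 30 bases before the start site, and in 29.5% of all windows. TATAAA, searched on the gene strand only, began 31 bases before the Muc1 start and 36 bases before that of Muc4. It was in 7.59% of all windows. These matches describe the letters in the windows, and binding was not measured here. RefSeq windows were found for 8 of the 10 genes, and Clu and Muc15 had none. The other windows, that of Wfdc2 among them, are not shown. The matches were thus not compared between genes that rose and genes that did not.

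Muc15, a further membrane mucin, showed no detectable difference. It was 1.80, 0.561 and 0 CPM in Control replicates 1 to 3, and 0.508, 1.26 and 0.646 CPM in Pea3 TKO replicates 1 to 3. The groups overlapped, and the log2 fold change was 0.01 (SE 1.16, adjusted p = 0.996). With 41 counts in all Controls and 37 in all Pea3 TKO samples, the rate ratio was 0.943 and counting error alone allowed 0.588 to 1.51. The sample spread is wider than that interval, as the standard error shows. Muc15 sits on chromosome 2 from 110721340 to 110739527, inside the larger gene Ano3 on the other strand, with which it shares 61 exonic bases.

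Clu, the secreted chaperone, rose in every mutant sample. It was 57.1, 42.2 and 19.6 CPM in Control replicates 1 to 3, and 748, 328 and 510 CPM in Pea3 TKO replicates 1 to 3. All mutant samples were at least 5.75-fold above the highest Control. The log2 fold change was 3.74 (SE 0.40, adjusted p = 0.00032), or 13.3-fold. In fits lacking 1 sample the log2 fold change lay from 3.40 to 4.09, and each was called. Clu lies on chromosome 14 from 65968483 to 65981547.

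Wfdc2 moved the other way. It was 49.4, 75.7 and 48.8 CPM in Control replicates 1 to 3, and 34.0, 40.4 and 37.3 CPM in Pea3 TKO replicates 1 to 3. The groups did not overlap, which with Pea3 TKO lower was so for 21.3% of tested genes, but the lowest Control was only 1.21-fold above the highest Pea3 TKO sample. The log2 fold change was -0.64 (SE 0.19, adjusted p = 0.038), which is 1.56-fold lower. The call was lost in 4 of 6 fits without 1 sample. Adjusted p was 0.151 without Control replicate 2, where the log2 fold change was -0.40, and 0.115, 0.076 and 0.078 without Pea3 TKO replicates 1, 2 and 3. Wfdc2 lies on chromosome 2 from 164562413 to 164568510.

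**Figure D2:**
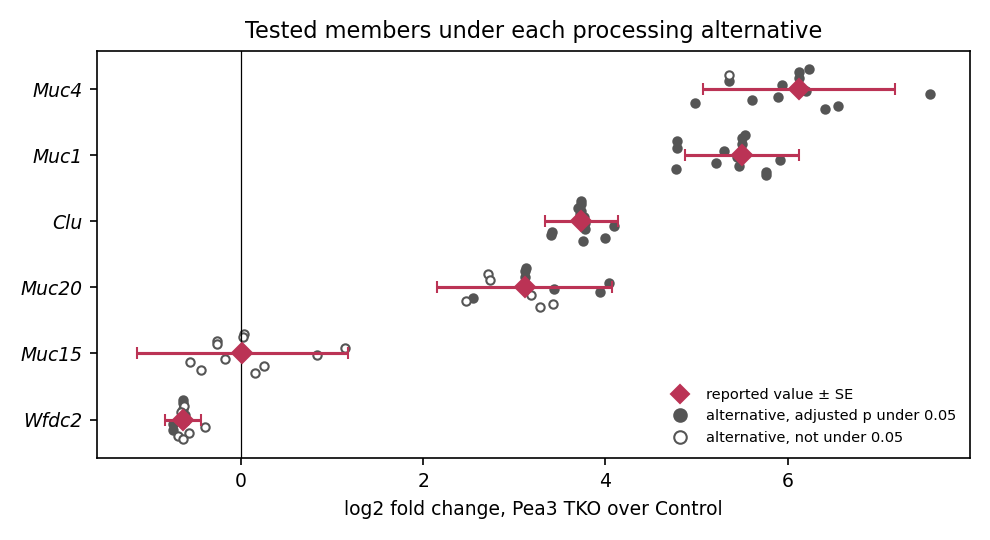
Log2 fold change of Pea3 TKO over Control for the 6 tested genes, with the reported value and its standard error as a diamond and each of up to 14 alternatives as a circle, filled where the adjusted p was under 0.05. Muc1 and Clu are filled throughout and Muc4 in 13 of 14 alternatives, Muc20 and Wfdc2 in 8 of 14 each, and Muc15 in none.

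The remaining secretory genes were at or near the floor. Ltf had 0 counts in all 6 samples, which allows at most 0.210 CPM in the shallowest of them. Pigr had 1 count in Control replicate 2, 1 in Pea3 TKO replicate 1 and none elsewhere. Lcn2 had 10, 5 and 17 counts in Control replicates 1 to 3 (0.564, 0.312 and 1.11 CPM), and 7, 0 and 0 in Pea3 TKO replicates 1 to 3. Lcn2 is also a granule protein of neutrophils. Of the 16 immune markers, 4 were at 0 in every sample (the neutrophil genes Elane, Mpo, Ngp and S100a8), and S100a9, also of neutrophils, had 4 counts in Control replicate 2 alone. The immune list summed to 29.0, 1.25 and 21.8 CPM in the Controls and 27.8, 4.75 and 2.47 in Pea3 TKO. The part of immune cells in the Lcn2 counts was not tested. Of the 7 immune markers tested, edgeR called none, none had an unadjusted p under 0.05, and DESeq2 called none.

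To compare levels between genes, CPM was divided by exonic length in kilobases. In the Controls, Wfdc2 led at 50.9 CPM per kb (range 42.8 to 66.4), followed by Clu at 11.5 (5.71 to 16.6), and these ranges did not overlap. Lcn2 (0.252), Muc15 (0.221), Muc20 (0.194) and Muc1 (0.145) came next in CPM per kb, with overlapping ranges, and Muc4 was at 0.0082. In Pea3 TKO the order at the top was exchanged: Clu reached 154 CPM per kb (95.5 to 218) and Wfdc2 stood at 32.7 (29.9 to 35.5). Muc1 followed at 6.77 (4.06 to 12.2), with no overlap with Muc20 at 1.71 (0.903 to 2.95). Muc20 overlapped with Muc4 at 0.639 (0.208 to 1.34), and Muc4 with Muc15 at 0.225 (0.142 to 0.353). In bulk samples, more cells of a kind and more RNA per cell cannot be told apart.

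The genes that rose had the same highest sample in each group. Pea3 TKO replicate 1 was the highest mutant sample for all 4 of them, 2.98-fold above the next for Muc1, 3.69-fold for Muc4, 2.32-fold for Muc20 and 1.47-fold for Clu. Control replicate 1 was the highest Control for the same 4. Among all 1783 genes called higher, Pea3 TKO replicate 1 was the highest mutant sample for 54.5% and Control replicate 1 the highest Control for 63.0%. The order of the remaining samples was not the same for all 4 genes. In Pea3 TKO replicate 3, which matched the Controls in Y-linked RNA and in mesenchyme markers, Muc1 was 18.8-fold, Muc4 19.0-fold, Muc20 3.49-fold and Clu 8.93-fold above the highest Control. That sample held the most erythroid RNA, with markers summing to 237 CPM. The same list summed to 36.0 to 122 CPM in the Controls, and to 52.2 and 61.3 in Pea3 TKO replicates 1 and 2. The part of erythroid cells was not tested. With replicate 3 as the only mutant sample, edgeR called Muc1 (log2 fold change 4.78, adjusted p = 0.024) and Clu (3.70, adjusted p = 0.0097). Muc4 (5.35, SE 1.44, adjusted p = 0.094), Muc20 (2.71, SE 1.46, adjusted p = 0.35) and Wfdc2 (-0.63, SE 0.31, adjusted p = 0.31) were not called, with folds near those from all samples and larger standard errors. Here the lone sample is assumed to vary as the Controls do. With a term for Y-linked RNA, the log2 fold change was 4.78 for Muc1 (adjusted p = 0.0062), 3.72 for Clu (adjusted p = 0.0046) and 5.35 for Muc4 (adjusted p = 0.039). In that fit Muc20 (2.73, SE 1.24, adjusted p = 0.26) and Wfdc2 (-0.66, SE 0.30, adjusted p = 0.26) kept their direction and size without a call. Only Pea3 TKO replicates 1 and 2 held almost no Y-linked RNA, so the term sets them apart. The fit thus rests mainly on Pea3 TKO replicate 3 and is not a check separate from the one before. It cannot tell sex from mesenchyme, which differed in the same samples.

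Markers of the ocular surface were examined beside these genes, since conjunctiva and cornea carry the same mucins. Of 15 markers listed, 13 could be tested and all 13 were higher in Pea3 TKO, Clu itself among them. Leaving Clu out, the median log2 fold change of the 12 others was 3.15, against 0.01 over all tested genes. These 12 include Krt12, Krt13 and Aldh3a1, each at most 0.338 CPM in any Control. Those genes passed the filter on low counts through the Pea3 TKO samples, where they were high, so a call of lower was not open to them. Cldn4, a tight junction claudin, rose from 40.5 ± 9.30 to 135 ± 9.71 CPM (SD, n = 3), a log2 fold change of 1.73 (adjusted p = 0.00022). Pax6 (log2 fold change 1.10, adjusted p = 0.00050) and the epithelial ETS factor Elf3 (1.94, adjusted p = 0.00076) rose as well. The summed CPM of the list without Clu was highest in Control replicate 1 among the Controls and in Pea3 TKO replicate 1 among the mutants. The same held for Muc1, Muc4, Muc20 and Clu, but not for Muc15. Periderm and stratified epithelium markers rose in 13 of 14 tested, with summed CPM of 1221 to 2471 in Controls and 6723 to 9097 in Pea3 TKO. The exception was Trp63 (log2 fold change -0.04, adjusted p = 0.92). Beside these counts, 13.6% of all tested genes were called higher. Dsg3 and Sprr1a of the stratified list, at most 0.620 CPM in any Control, also passed the filter through the Pea3 TKO samples. Both lists were chosen with earlier results of these data known. Whether cells of the neighbouring surface epithelium were captured with the bud was not tested.

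**Figure D3:**
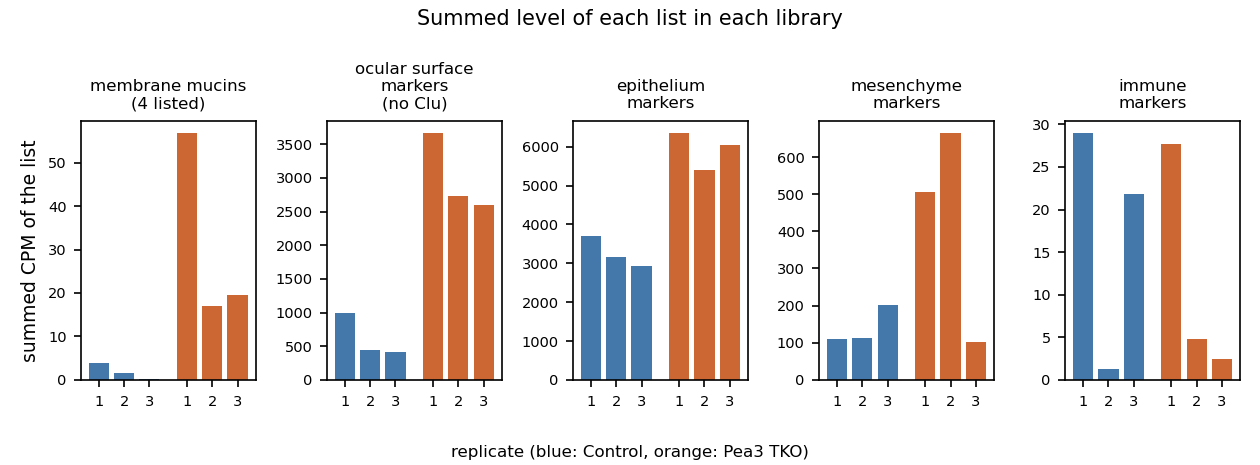
Summed CPM of each gene list in each sample, with Controls in blue and Pea3 TKO in orange; bars start at 0. The 4 listed membrane mucins sum to at most 4.002 CPM in a Control and at least 16.9 in a Pea3 TKO sample, and mesenchyme markers are high in Pea3 TKO replicates 1 and 2 only.

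Of the other cell types, the mesenchyme list had 2 of 10 tested markers higher (Lum and Dcn, named after their values were seen), and both had overlapping groups. Over all tested genes, 13.6% were called higher. The median log2 fold change of the mesenchyme list was 2.15, and DESeq2 called 1 of its genes, which was higher. The endothelium, erythroid, melanocyte and Schwann, and lens and retina lists had no call by edgeR. At an unadjusted p under 0.05 the lens and retina list had 1 and the others 0, and DESeq2 called 1 gene each in the endothelium and the lens and retina lists. Lens RNA was highest in Control replicate 2, where that list summed to 814 CPM against 135 to 264 elsewhere.

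Other mucins were scarce. The 5 gel-forming mucins, which goblet cells release into the tear film, were too low to test, and only Muc5ac had any count (at most 0.282 CPM, in Control replicate 1). Of 8 other membrane mucins or mucin-named adhesion molecules, 3 were listed and only Mcam, an adhesion molecule once named MUC18, was tested. Mcam fell from 199 ± 9.03 to 99.6 ± 20.7 CPM (SD, n = 3; log2 fold change -0.9997, adjusted p = 0.0016).

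Of 27 listed enzymes that build mucin-type O-glycans, 19 were tested. Of these, 2 were higher, 4 were lower and 13 were not called, beside 25.0% of all tested genes called in either direction, with a median log2 fold change of -0.18. St6galnac4, a sialyltransferase, fell from 78.3 ± 14.9 to 14.01 ± 4.09 CPM (SD, n = 3), a log2 fold change of -2.48 (SE 0.23, adjusted p = 0.00016). Gcnt1, which makes the core 2 branch, fell from 42.6 ± 14.9 to 13.7 ± 4.18 CPM (log2 fold change -1.64, adjusted p = 0.0043). Galnt7, which adds N-acetylgalactosamine to partly glycosylated peptides, fell by 0.81 on the log2 scale (adjusted p = 0.0068), and St6galnac2 rose by 0.53 (adjusted p = 0.026). The St6galnac2 call was lost without Control replicate 2 (adjusted p = 0.064), Control replicate 3 (0.085), Pea3 TKO replicate 1 (0.081) or Pea3 TKO replicate 3 (0.051), and with the Y-linked term (0.22). With that term Galnt7 was not called either (log2 fold change -0.60, adjusted p = 0.18).

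Among goblet cell and mucus-associated genes, 6 of 15 were tested, 3 were higher and none was lower, with a median log2 fold change of 1.68. Over all tested genes, 13.6% were called higher. Tff1, Tff3, Zg16 and Dmbt1 of this list had no count in any sample. Agr2, an endoplasmic reticulum protein needed for mucin folding, rose from 8.17 ± 2.93 to 28.0 ± 8.21 CPM (SD, n = 3; log2 fold change 1.78, adjusted p = 0.0043). Lgals3, a galectin that binds membrane mucins at the ocular surface, rose from 1.16 ± 1.63 to 13.4 ± 5.55 CPM (log2 fold change 3.49, adjusted p = 0.018). Without Control replicate 1, which held most of its Control signal, Lgals3 had a log2 fold change of 5.86, and its call was lost without Control replicate 2 (adjusted p = 0.058) or Pea3 TKO replicate 1 (0.072). Clca2 rose too (log2 fold change 3.08, adjusted p = 0.0068). With the Y-linked term none of these was called, at an adjusted p of 0.077 for Agr2, 0.16 for Lgals3 and 0.072 for Clca2. Spdef, the goblet cell transcription factor, was at most 0.940 CPM in any sample and was not called (adjusted p = 0.43).

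Tear proteins of the adult gland were mostly not detected at this depth. Of 26 listed, 25 were in the tables, 15 of these had no count in any sample, and 4 were tested. Cst3, a secreted cysteine protease inhibitor made by many cells, rose from 151 ± 14.2 to 277 ± 4.87 CPM (SD, n = 3; log2 fold change 0.88, adjusted p = 0.00075), and was the only gene edgeR called. DESeq2 called 3 of the list, all higher. Among antimicrobial and protease-inhibitor products, 6 of 23 were tested and 3 were higher, beside 13.6% of all tested genes called higher. The 3 were Il1rn, the interleukin 1 receptor antagonist (log2 fold change 4.73, adjusted p = 0.0074), and the membrane-bound protease inhibitors Spint1 (1.25, adjusted p = 0.0011) and Spint2 (0.50, adjusted p = 0.035). Il1rn was 1.24, 0.0623 and 0 CPM in Control replicates 1 to 3, and its log2 fold change was 8.26 without Control replicate 1. Spint2 lost its call in 5 of 6 fits lacking 1 sample, all but that without Pea3 TKO replicate 3, with adjusted p from 0.058 to 0.137. With the Y-linked term its log2 fold change was 0.28 (adjusted p = 0.45). None of the 6 was lower.

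**Figure D4:**
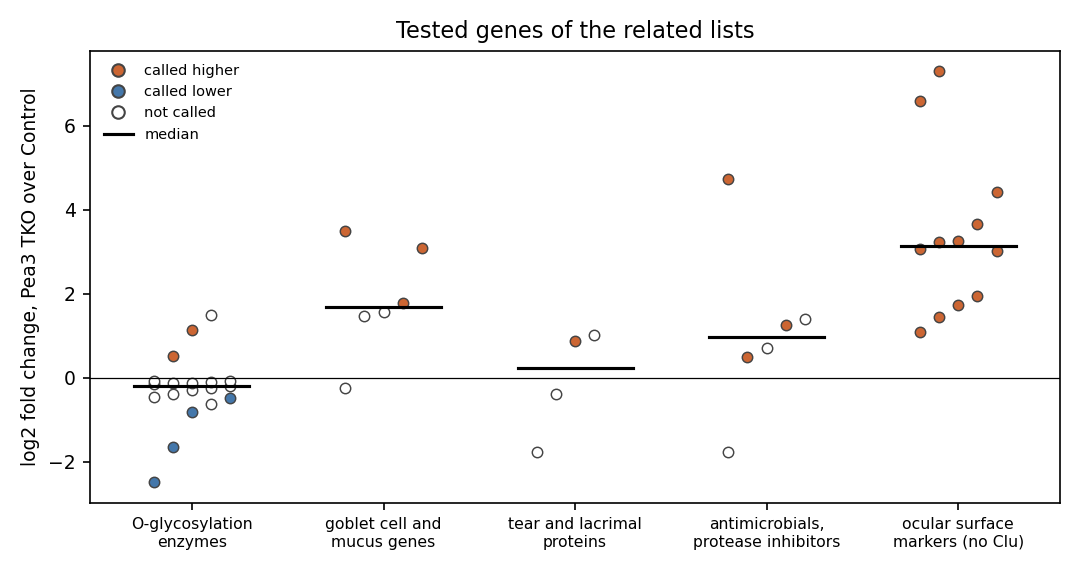
Log2 fold change of Pea3 TKO over Control for each tested gene of 5 lists, coloured by call, with the median of each list as a line. O-glycosylation enzymes lie on both sides of 0 with 4 called lower, whereas all 12 ocular surface markers other than Clu are called higher. Krt12, Krt13 and Aldh3a1 among these markers passed the filter on low counts through the Pea3 TKO samples.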

How the data were processed

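Laser-captured E14.5 lacrimal gland bud RNA was amplified (NuGEN Ovation RNA-seq System V2) and sequenced on a HiSeq2500. The authors deposited raw, unnormalized read counts for each gene symbol, in a separate table for every sample. The submitters' processing notes name STAR 2.5.2b, featureCounts 1.5.0-p3, DESeq and mm10, with no roles; strand setting and annotation are not given in the sources used here. Genes were kept by filterByExpr of edgeR 4.0.16 (R 4.3.3), which left 13087 of 23420, normalized by TMM and tested by the quasi-likelihood test with group as the only term, adjusted by Benjamini-Hochberg over all tested genes. The script was tested on simulated data. Each standard error was obtained from the F statistic, as the log2 fold change (unsigned) over its root. Positions and exonic lengths are from GENCODE M21 (GRCm38, the assembly behind mm10), by symbol. A floor of 3 counts per sample was used, and totals of 14194775 to 17860140 counts set its level in CPM.

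Named genes were the 10 chosen, the 3 targeted genes, and up to 4 called genes of smallest p per list. For other cell types, naming the genes of highest level was planned but not done. The genes, lists and alternatives were chosen with earlier results of these data known; Clu, Pax6 and a few others are on more than 1 list. Promoter letters were searched after the data were seen. Epcam, Trp63, Spdef, Muc5ac, S100a9 and genes named as at 0, as overlapping or as sex markers were named after their values were seen. So were Krt12, Krt13, Aldh3a1, Dsg3 and Sprr1a. Alternatives used DESeq2 1.42.0, limma 3.58.1, other filters and size factors, a replicate block, Y-linked expression and each sample left out.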

Additional observations from a re-analysis of the deposited data

How the results depend on the processing

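The number of genes of the set called higher (4) stayed at 3 or 4 under every alternative except the fit on Pea3 TKO replicate 3 alone. With a term for Y-linked RNA, 0 were called lower by edgeR (unadjusted p of Wfdc2 0.058), and over all tested genes 492 were called higher and 286 lower, with 3 higher and 3 lower among the lists of other mucins, glycosylation enzymes, goblet cell genes, tear proteins and antimicrobial products (9 and 5 as reported). With Pea3 TKO replicate 3 as the only mutant sample, chosen after seeing the data, 2 genes of the set were higher and 0 lower (unadjusted p of Wfdc2 0.085), 315 and 282 of all genes, and 1 and 2 of those lists; this fit holds fewer samples. Both settings rest mainly on Pea3 TKO replicate 3. Under both, Muc15, never called, had a log2 fold change of -0.27, against 1.14 in limma voom and 0.83 with the replicate block. DESeq2 called 1 gene of the set lower.

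With each sample left out in turn, the set held 3 to 4 higher and 0 to 1 lower genes, and the latter was 1 in each fit at an unadjusted p under 0.05. Over all genes 1131 to 1948 were higher, with 1131 without Control replicate 2 and 1149 without Control replicate 3, and 799 to 1417 were lower, with 799, 832 and 873 without Control replicate 3, Control replicate 2 and Pea3 TKO replicate 2. The lists held 5 to 9 higher and 4 to 6 lower, with 5 higher without Control replicate 2, and Muc15 ranged from -0.56 to 0.26. The cause was not tested.

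Samples with the same replicate number deviated together at r = 0.144, -0.064 and 0.045 for numbers 1 to 3, so the numbers were not taken to pair samples; with the replicate block, 1769 genes were higher and 1422 lower, and the set held 4 and 1. Muc15 could not be fitted under the stricter filter or without Control replicate 1. Depth limits Ltf, Pigr, Lcn2 and Muc15, and the Control level of Muc4. Lcn2 gave a log2 fold change of -2.10 without the filter (adjusted p = 0.42) and -2.16 in DESeq2 (adjusted p = 0.43).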

Other observations

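The protein-coding genes within 100 kb of the called genes were read from the same fit, a choice made after the data were seen. For comparison with the counts below, 13.6% of all tested genes were called higher and 25.0% in either direction. Around Muc4 and Muc20, 2 of 4 neighbours were tested and neither was called: adjusted p was 0.9997 for Tnk2 and 0.40 for Fyttd1, whose log2 fold change was 0.13. Around Muc1, 13 of 14 were tested and 2 were higher: Efna1, an ephrin ligand, rose from 92.8 ± 10.3 to 200 ± 23.4 CPM (SD, n = 3; log2 fold change 1.11, adjusted p = 0.00058), and Fam189b had a log2 fold change of 0.73 (adjusted p = 0.030). The genes nearest to Muc1 on either side, Mtx1 and Trim46, were not called, with log2 fold changes of -0.32 (adjusted p = 0.16) and 0.30 (adjusted p = 0.66).

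Beside Clu, the only tested neighbour, the scavenger receptor Scara3, had a log2 fold change of 0.65 (adjusted p = 0.024). Wfdc2 lies in a cluster of related genes on chromosome 2, of whose 14 neighbours 3 were tested. Dbndd2 among them was higher (log2 fold change 1.91, adjusted p = 0.0014), opposite in direction to Wfdc2, and Sys1 and Pigt were not called.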
